A study of Mus musculus and Homo sapiens with 107 samples.

Results

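The genes described here are 10 receptor tyrosine kinases studied in lung cancer: EGFR, ERBB2, ERBB3, MET, MST1R, AXL, FGFR1, IGF1R, EPHA2 and DDR1. They were taken by a list of Ensembl gene identifiers that applies no threshold to measured values, and each identifier was found, giving 10 of 24019 rows in the H1299 count table and 10 of 24353 rows in the A549 table. The list was chosen with earlier results of these data known. Counts and medians of the 10 set beside those of all genes are therefore descriptions and no test of the set. The libraries are bulk RNA-seq of H1299 and A549, both established cell lines from human non-small-cell lung cancer. Within each line, cells given BRM014 at 5 µM for 12 h were set against cells given the solvent DMSO, with 3 libraries in each of the 4 groups. The labels give the genotype of both lines as wt. DMSO is listed at 0.05% in the sample titles and at 0.5% in another field, and the counts cannot settle which applies. BRM014 is an allosteric inhibitor of the ATPases BRM (SMARCA2) and BRG1 (SMARCA4), which drive the SWI/SNF chromatin remodelling complexes. As background not taken from the labels, both lines are known for inactivating SMARCA4 alterations.

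Receptor tyrosine kinases are membrane proteins that bind a ligand outside the cell, pair up and phosphorylate one another and adaptor proteins inside it. Their signals run mainly through the RAS-MAPK and PI3K-AKT pathways and drive growth, survival and movement. In lung cancer EGFR and MET are drug targets when mutated or amplified, and AXL is known for its link to a mesenchymal state and to tolerance of EGFR inhibitors. RNA-seq measures the mRNA of these genes, not the protein or its phosphorylation.

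The H1299 libraries held 30602193 to 41780029 counts with BRM014 and 28412113 to 40072734 with DMSO. The A549 libraries held 42417643 to 44910378 with BRM014 and 40684360 to 50177678 with DMSO. Levels below are CPM (counts scaled to a common total) after TMM scaling of the 12 libraries, and SDs are over the 3 libraries of a group. A single header stands over 2 BRM014 columns for A549, so these carry no replicate number and are called a and b here. Library a and the first A549 DMSO library deviated from their group means together (r = 0.54 across genes), so A549 results were also computed without this pair. Line, growth medium and the number of PCR cycles, 8 for H1299 and 9 for A549, cannot be told apart. Nothing in the labels ties replicates to separate cultures, so the tests speak only of variation among these libraries, which could be technical. A change in CPM is a change relative to the other mRNAs of a library, and less mRNA per cell cannot be told apart from fewer cells that express the gene. The cell identity of the lines was not checked on marker genes, because apart from the 10 receptors the identifiers could not be paired with symbols.

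AXL, EPHA2 and IGF1R mRNA fell with BRM014 in both lines. MET moved in opposite directions, lower in treated H1299 cells and higher in treated A549 cells. EGFR fell and ERBB3 rose in H1299, while FGFR1 and ERBB2 rose and MST1R fell in A549. DDR1 was the only one of the 10 that passed the test in neither line. By edgeR's quasi-likelihood test with Benjamini-Hochberg adjustment over all genes (threshold 0.05), 6 of the 10 changed in H1299 (1 rose, 5 fell), where 22% of the 14986 genes tested changed. In A549, 7 of the 10 changed (3 rose, 4 fell), where 37% of 15188 genes changed.

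The directions among all genes were 9.29% rising and 12.7% falling in H1299, and 17.7% rising and 19.4% falling in A549. Of all changed genes 42.2% were higher in H1299 and 47.7% in A549. When libraries were scaled by their totals and not by TMM factors, these shares were 58.4% and 60.9%. The median log2 fold change of the 10 receptors was -0.11 in H1299, beside 0.0029 for all genes tested, and -0.09 in A549, beside 0.017. All 10 passed the filter on low counts in each comparison. The treated and control libraries did not overlap for 6 of the 10 in H1299, where this held for 35.2% of all genes, and for 8 of the 10 in A549, where it held for 48.2%.

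**Figure D1:**
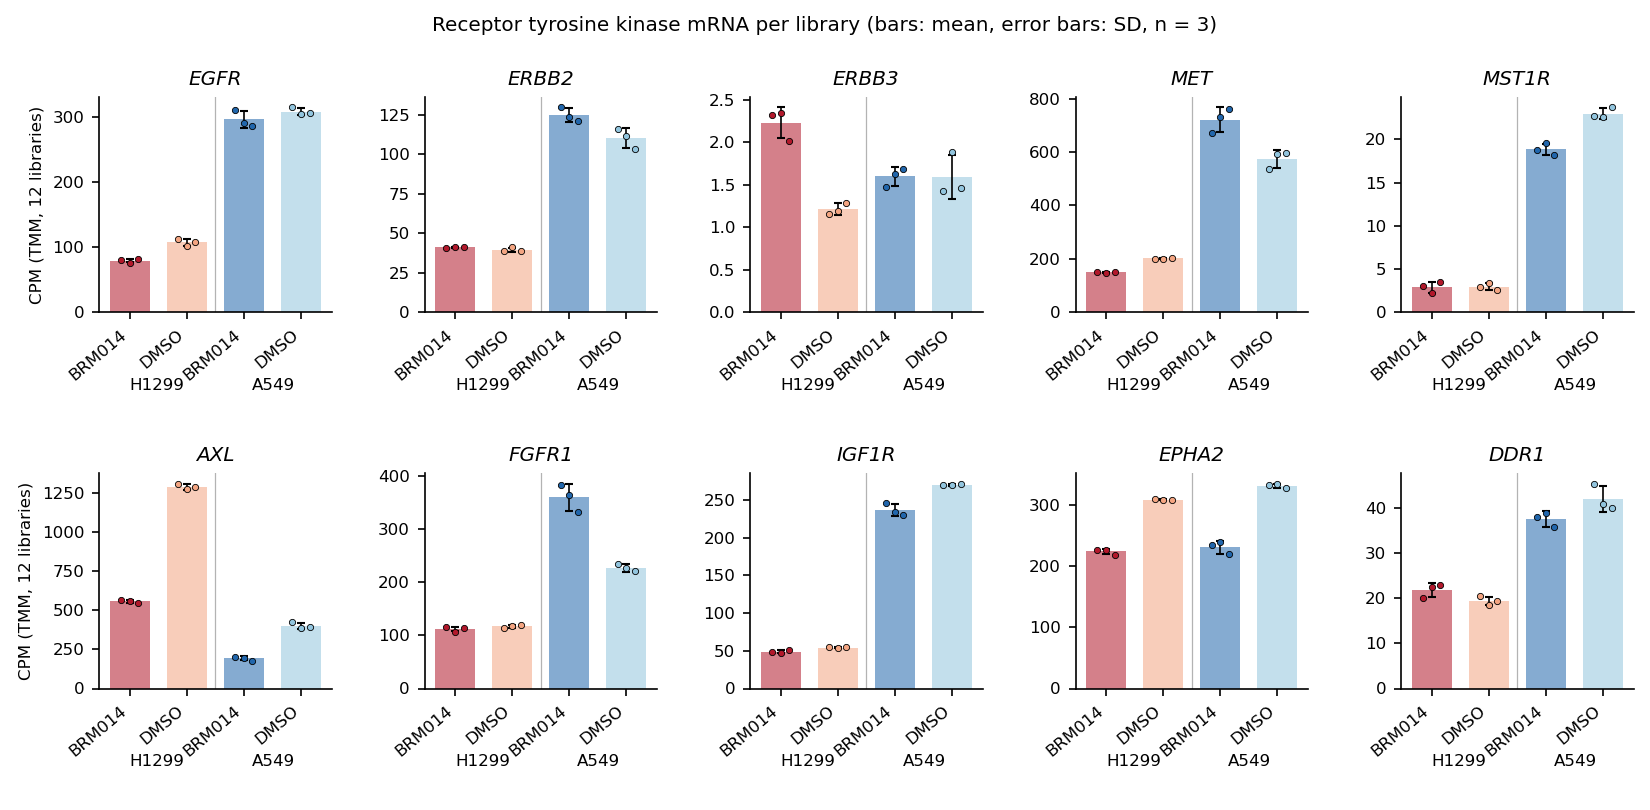
Level of each receptor mRNA in CPM (linear axes starting at 0, scaled separately for each gene) in the H1299 BRM014, H1299 DMSO, A549 BRM014 and A549 DMSO libraries; points are libraries, bars are means and error bars SD (n = 3). The AXL bar is lower with BRM014 than with DMSO in both lines, and the MET bars step down with BRM014 in H1299 and up in A549.

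EGFR (ENSG00000146648), the receptor for EGF, TGF-alpha and related ligands, fell in H1299. Its level was 79.5, 76.3 and 81.7 CPM in the H1299 BRM014 libraries, against 112, 102 and 107 CPM in the H1299 DMSO libraries. Every treated library was below every control library, with a log2 fold change of -0.44 (standard error 0.038) and an adjusted p of 1.79e-11. In A549 the BRM014 libraries held 310.1, 291 and 287 CPM, against 314, 304 and 306 CPM in the DMSO libraries. The A549 groups overlapped, because treated library a was above 2 of the 3 controls. Library a and the first control, each the highest of its group, are the pair that deviated together. Over 16 alternatives, among them the fit without this pair, the A549 log2 fold change ranged from -0.10 to 0.014. The A549 log2 fold change was -0.036 with a 95% interval of -0.12 to 0.05 and an adjusted p of 0.507. The response of EGFR differed between the lines by -0.38 on the log2 scale, H1299 minus A549 (standard error 0.059, adjusted p = 4.08e-05, edgeR interaction term).

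ERBB2 (ENSG00000141736), which has no known ligand of its own and serves as a partner for the other ERBB receptors, rose in A549. The A549 BRM014 libraries held 129.7, 124 and 121 CPM, against 116, 111 and 104 CPM in the A549 DMSO libraries. The groups did not overlap, and the log2 fold change was 0.20 (standard error 0.051, adjusted p = 0.00955). Without the 2 libraries that share a header, which leaves only the third A549 BRM014 library in the treated group, it was 0.13. The A549 rise of ERBB2 did not pass a test against 1.2-fold. In H1299 the BRM014 libraries held 40.7, 41.4 and 41.4 CPM, against 38.6, 41.0 and 39.1 CPM in the DMSO libraries. These overlapped, with a log2 fold change of 0.056, a 95% interval of -0.035 to 0.15 and an adjusted p of 0.424. The difference between the responses was -0.12 (95% interval -0.26 to 0.02, adjusted p = 0.241), so the passing of the test in A549 alone does not show that the lines differ.

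ERBB3 (ENSG00000065361), which binds neuregulins and has a weak kinase of its own, was measured on few reads. In H1299 it had 78, 105 and 70 reads with BRM014, against 49, 40 and 39 reads with DMSO. In CPM these were 2.32, 2.35 and 2.02 with BRM014, against 1.16, 1.19 and 1.29 with DMSO. The treated libraries were all above the controls. The log2 fold change of 0.88 had a standard error of 0.20, a 95% interval of 0.48 to 1.28 and an adjusted p of 0.000763. Of all genes tested in H1299, 99.4% had a lower log2 fold change. In A549, with 60 to 69 reads in every library, the level was 1.48, 1.63 and 1.69 CPM with BRM014, against 1.43, 1.89 and 1.46 CPM with DMSO. The A549 groups overlapped (log2 fold change 0.038, 95% interval -0.31 to 0.39, adjusted p = 0.879). The responses differed by 0.87 (standard error 0.24, adjusted p = 0.0104), a difference that did not pass a test against 1.2-fold. Without the 2 A549 libraries that share a header, which leaves only the third A549 BRM014 library in that group, the difference was 0.79.

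MET (ENSG00000105976), the receptor for hepatocyte growth factor, was the receptor whose mRNA passed the test with opposite signs in the lines. In H1299 it stood at 151, 147 and 149 CPM with BRM014, against 201, 200.0 and 203 CPM with DMSO. The treated libraries were all lower and each group was tight, with a log2 fold change of -0.44 (standard error 0.031, adjusted p = 9.90e-14). In A549 it stood at 671, 733 and 761 CPM with BRM014, against 536, 592 and 598 CPM with DMSO. The treated A549 libraries were all higher, with a log2 fold change of 0.35 (standard error 0.049, adjusted p = 0.000156). This A549 rise did not pass a test against 1.2-fold (adjusted p = 0.0874), whereas the H1299 fall did. The lowest library of each A549 group belonged to the pair that deviated together, and without that pair the log2 fold change was 0.34. The difference between the responses was -0.76 (standard error 0.062, adjusted p = 1.63e-09).

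MST1R (ENSG00000164078), also called RON, is the receptor for macrophage-stimulating protein and a relative of MET. In A549 it had 18.8, 19.5 and 18.2 CPM with BRM014, against 22.7, 22.6 and 23.7 CPM with DMSO. The groups did not overlap and the gene fell, with a log2 fold change of -0.26 (standard error 0.057, adjusted p = 0.00354). In H1299 it had 2.98, 2.19 and 3.46 CPM with BRM014, against 2.89, 3.42 and 2.55 CPM with DMSO, from 77 to 122 reads in a library. These libraries were mixed, and the log2 fold change of -0.060 had a wide 95% interval of -0.40 to 0.27 (adjusted p = 0.852). The difference between the responses was 0.22 (95% interval -0.12 to 0.56, adjusted p = 0.395), so MST1R was not shown to respond differently in H1299 and A549.

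AXL (ENSG00000167601), the receptor for GAS6, had the greatest fold change of the 10 in each line. In H1299 it stood at 565, 557 and 545 CPM with BRM014, against 1306, 1269.5 and 1286 CPM with DMSO. The highest treated library was far below the lowest control, with a log2 fold change of -1.21 (standard error 0.027, adjusted p = 3.08e-28), and the level fell by 56.9%. In A549 it stood at 203, 194 and 179 CPM with BRM014, against 422, 389 and 391 CPM with DMSO. These groups also stood wide apart, with a log2 fold change of -1.04 (standard error 0.052, adjusted p = 2.62e-08), and the level fell by 51.4%. AXL was the only receptor of the 10 that changed by at least 2-fold, a fall that 1.61% of all genes tested showed in H1299 and 4.6% in A549. The share of genes with a lower log2 fold change was 1.15% in H1299 and 4.38% in A549. The difference between the responses was -0.15 (95% interval -0.27 to -0.032), which did not pass at an adjusted p of 0.0701. It passed with library totals (-0.19) and with no filter on low counts (-0.15), as well as without the first A549 DMSO library (-0.19), without the third A549 BRM014 library (-0.21), and without the A549 pair that deviated together (-0.14).

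FGFR1 (ENSG00000077782), a receptor for fibroblast growth factors, had the greatest rise among the 10 in A549. It stood at 384, 364 and 333 CPM in the A549 BRM014 libraries, against 235, 227 and 221 CPM in the A549 DMSO libraries. The lowest treated library was well above the highest control, with a log2 fold change of 0.68 (standard error 0.051, adjusted p = 7.04e-07), a rise of 60.7%. Of the genes tested in A549, 95.4% had a lower log2 fold change. In H1299 it stood at 115, 107 and 115 CPM with BRM014, against 115, 117 and 119 CPM with DMSO. The highest treated library lay just above the lowest control, so the groups overlapped, with a log2 fold change of -0.063 (95% interval -0.14 to 0.01, adjusted p = 0.237). The difference between the responses was -0.72 (standard error 0.065, adjusted p = 8.69e-09).

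IGF1R (ENSG00000140443), the receptor for insulin-like growth factors, fell by 10.5% in H1299 and by 11.1% in A549. It stood at 48.3, 47.0 and 50.6 CPM in the H1299 BRM014 libraries, against 54.8, 53.3 and 54.7 CPM in the H1299 DMSO libraries. In A549 it stood at 246, 234 and 230.3 CPM with BRM014, against 269.9, 269.6 and 272 CPM with DMSO. In neither line did the groups overlap, though the gaps were narrow. The log2 fold change was -0.16 in H1299 (standard error 0.042, adjusted p = 0.00427) and -0.17 in A549 (standard error 0.036, adjusted p = 0.00326). Between the lines the IGF1R response differed by 0.033, with a 95% interval of -0.084 to 0.15 (adjusted p = 0.749).

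EPHA2 (ENSG00000142627), which binds ephrin-A ligands on neighbouring cells, also fell in both lines. It stood at 226, 227 and 219 CPM in the H1299 BRM014 libraries, against 309.7, 308 and 308 CPM in the H1299 DMSO libraries. In A549 it stood at 234, 239 and 219 CPM with BRM014, against 333, 334 and 328 CPM with DMSO. All treated libraries of both lines were below all controls of both lines. The log2 fold change was -0.46 in H1299 (standard error 0.029, adjusted p = 3.39e-15) and -0.50 in A549 (standard error 0.037, adjusted p = 7.45e-07). Between the lines the response of EPHA2 differed by 0.062, with a 95% interval of -0.043 to 0.17 (adjusted p = 0.449).

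DDR1 (ENSG00000204580), a receptor activated by collagen, did not pass the test in either line, yet its responses differed between the lines. In H1299 it stood at 20.0, 22.4 and 22.9 CPM with BRM014, against 20.4, 18.5 and 19.4 CPM with DMSO. One treated library lay within the control range, and the log2 fold change was 0.16 (95% interval 0.035 to 0.29, adjusted p = 0.0604). In A549 it stood at 38.0, 39.0 and 35.7 CPM with BRM014, against 45.4, 40.9 and 40.0 CPM with DMSO. The A549 groups did not overlap, and the log2 fold change was -0.14 (95% interval -0.28 to -0.0053, adjusted p = 0.098). The difference between the responses was 0.33 (standard error 0.091, adjusted p = 0.0117). In H1299 the call was reached without the first BRM014 library (0.21), with library totals (0.19) and with a filter at 5 CPM (0.17). In A549 it was reached in the joined fit (-0.16).

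**Figure D2:**
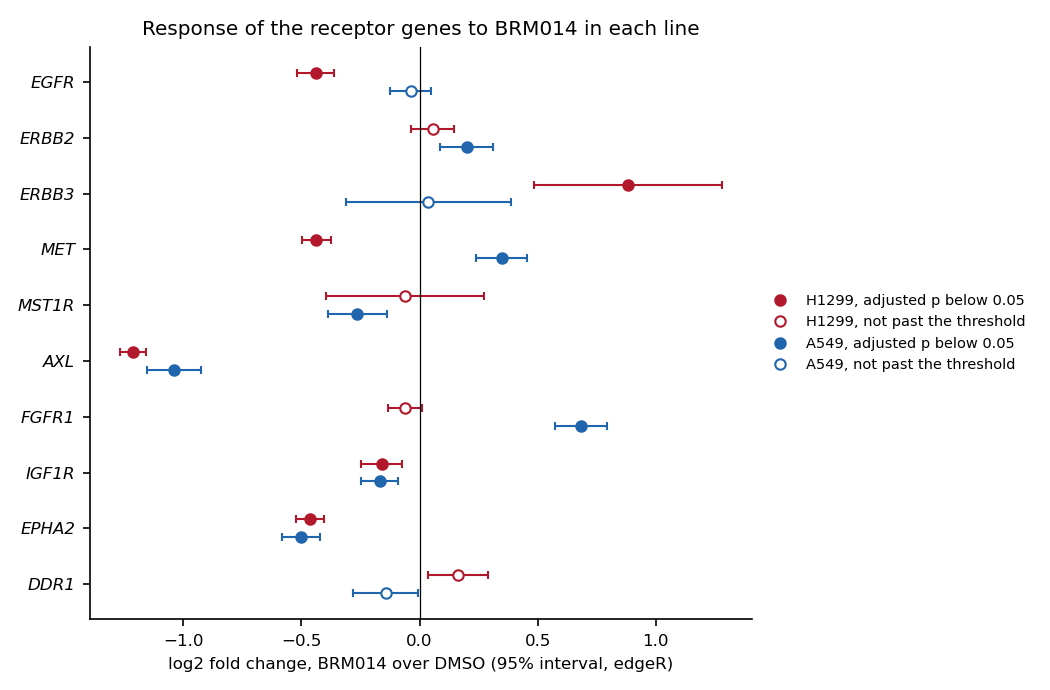
Log2 fold change of each receptor mRNA, BRM014 over DMSO, in H1299 (red, upper mark of each pair) and A549 (blue, lower mark), with 95% intervals from edgeR; filled marks passed an adjusted p of 0.05. AXL lies farthest to the left at -1.21 and -1.04, MET lies on opposite sides of 0 at -0.44 and 0.35, and the interval of ERBB3 in H1299 is the widest, from 0.48 to 1.28.

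**Figure D3:**
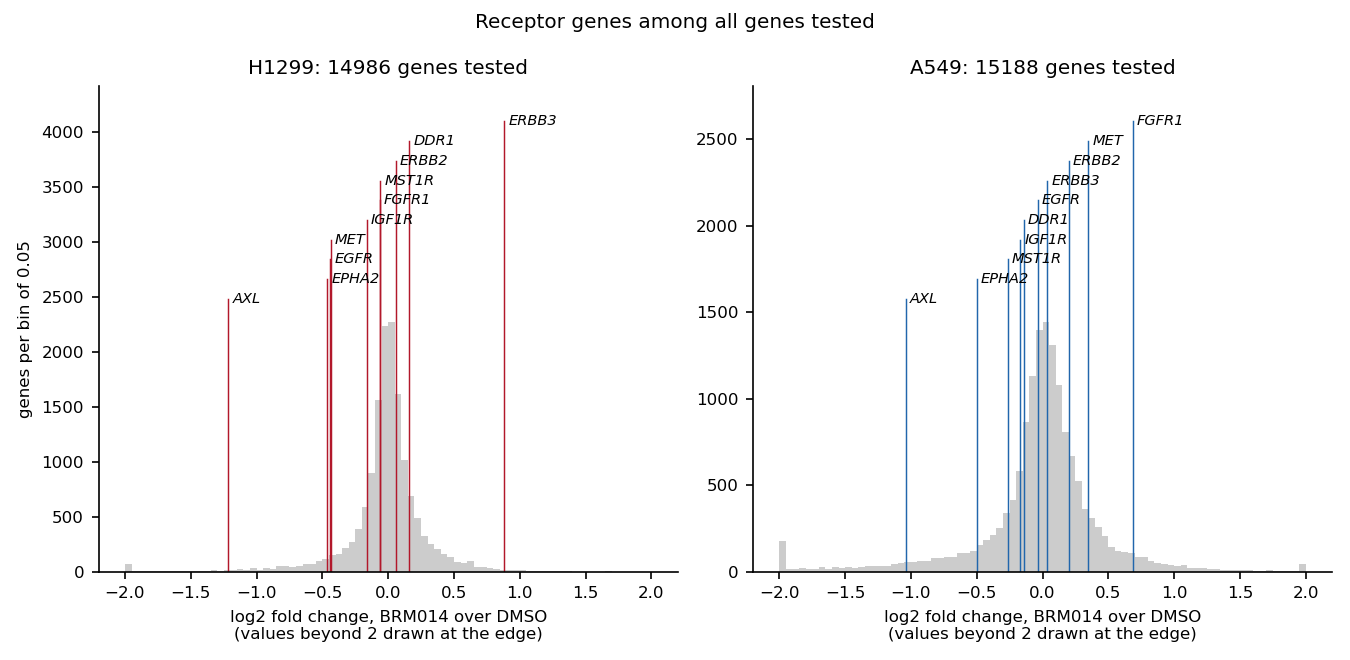
The receptor genes (labelled lines) on the distribution of log2 fold changes of all genes tested (grey, genes per bin of 0.05) in H1299 (14986 genes) and A549 (15188 genes); values beyond 2 in size are drawn at the edge, and line heights only separate the labels. AXL lies in the lower tail of both lines, ERBB3 in the upper tail in H1299 and FGFR1 at 0.68 in the upper tail in A549. EPHA2, EGFR and MET lie toward the lower tail in H1299, where 5.63%, 6.05% and 6.11% of genes had a lower value.

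The responses of the 2 lines were compared directly by the interaction term of the joined fit. MET, FGFR1 and EGFR had a more negative response in H1299 than in A549, and ERBB3 and DDR1 a more positive one. In all, 5 of the 10 passed this test (2 more positive, 3 more negative), where 19.5% of the 16466 genes tested did (10.2% more positive, 9.25% more negative). Of all genes that passed, 52.5% were more positive in H1299 with TMM factors and 40.7% with library totals. The median over the 10 was -0.043 and over all genes -0.0025. EGFR, ERBB3 and FGFR1 passed the test in 1 line alone and also the interaction test. ERBB2 and MST1R passed in A549 alone without passing it. The 3 receptors that fell in both lines, AXL, IGF1R and EPHA2, did not pass it.

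Without inhibitor, H1299 had less of 9 of these mRNAs than A549 and more AXL. The ERBB3 and EPHA2 differences did not hold under every setting, as given below. All 10 passed the test of the line difference in DMSO (9 lower, 1 higher), a result that 85.7% of the 16466 genes shared (42.8% lower and 42.9% higher in H1299). The ranges of the DMSO libraries did not overlap between the lines for any of the 10, as for 86.6% of all genes. The median over the 10 was -1.30, H1299 minus A549, beside 0.016 for all genes.

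MST1R had the widest gap in DMSO, with 2.95 ± 0.441 CPM in H1299 and 23.0 ± 0.625 CPM in A549 (SD, n = 3 each). The log2 difference was -2.96 (standard error 0.11) with an adjusted p of 1.44e-18. IGF1R followed with 54.2 ± 0.810 CPM in H1299 and 270.4 ± 1.11 CPM in A549, and its log2 difference was -2.32 (standard error 0.041) with an adjusted p of 7.03e-25. EGFR, MET and ERBB2 lay close together, with log2 differences of -1.52, -1.51 and -1.48. Their levels in H1299 were 0.348, 0.350 and 0.358 times those in A549. DDR1 and FGFR1 were lower in H1299 by smaller amounts, with log2 differences of -1.11 and -0.96. AXL was the exception, with 1287 ± 18.5 CPM in H1299 and 401 ± 18.8 CPM in A549. Its log2 difference was 1.68 (standard error 0.041) with an adjusted p of 5.50e-22.

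EPHA2 differed little between the lines in DMSO, and the ERBB3 difference was imprecise. ERBB3 averaged 1.21 ± 0.0686 CPM in H1299 and 1.59 ± 0.254 CPM in A549. Its log2 difference of -0.39 (95% interval -0.75 to -0.019) passed narrowly (adjusted p = 0.0467). It ceased to pass in 10 of its 13 alternatives, with an adjusted p of 0.0345 to 0.390 over the 13. Among these 10 were the fits without the second A549 DMSO library (-0.26), and without the first (-0.35), the second (-0.38) or the third (-0.43) H1299 DMSO library. EPHA2 averaged 309 ± 1.06 CPM in H1299 and 332 ± 3.13 CPM in A549, and its log2 difference was -0.10 (standard error 0.036) with an adjusted p of 0.00969. Its sign depended on scaling: with library totals the difference was 0.12, a setting that moves the median of all genes from 0.016 to 0.24, and with a filter at 5 CPM it did not pass.

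With BRM014 the gaps between the lines changed for the receptors whose responses differed. This follows from the interaction, so the line ratios restate it on group means and are no separate test. The mean of MET in H1299 was 0.207 times that in A549 with BRM014 and 0.350 times in DMSO. The ratios for FGFR1 were 0.312 with BRM014 and 0.514 in DMSO, and those for EGFR were 0.268 with BRM014 and 0.348 in DMSO. The ERBB3 means changed sides: the mean in H1299 was 1.39 times that in A549 with BRM014 and 0.762 times in DMSO. These means rest on 39 to 105 reads in a library. The ERBB3 difference in DMSO ceased to pass in 10 of its 13 alternatives, and the difference with BRM014 was not tested. For DDR1 the ratio was 0.580 with BRM014 and 0.462 in DMSO. AXL stayed higher in H1299, at 2.90 times the A549 mean with BRM014 and 3.21 times in DMSO. The EPHA2 libraries of the lines overlapped with BRM014, where the ratio of means was 0.971. These ratios with BRM014 are descriptions, and in BRM014 libraries the lines did not overlap for 9 of the 10, as for 85.2% of all genes.

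**Figure D4:**
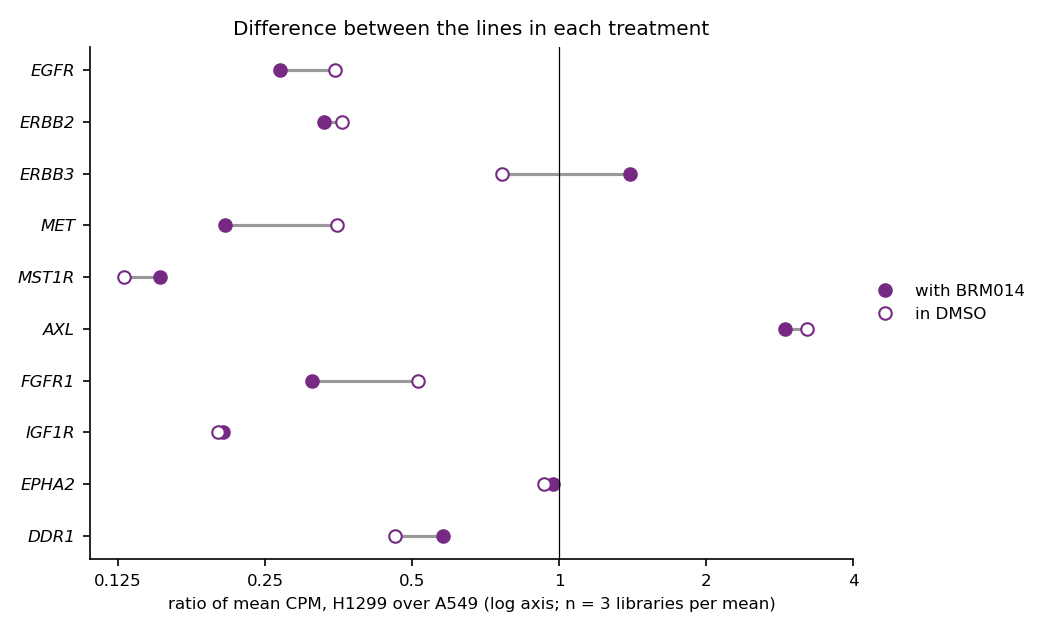
Ratio of the mean CPM in H1299 over that in A549 (log axis) for each receptor with BRM014 (filled) and in DMSO (open), each mean over 3 libraries. Most receptors lie left of 1, and AXL lies near 3 in both treatments. ERBB3, measured on few reads, lies on either side of 1, at 1.39 with BRM014 and 0.762 in DMSO.

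The order of the 4 groups differed between receptors. For EGFR, MST1R and IGF1R the order was A549 DMSO, A549 BRM014, H1299 DMSO and H1299 BRM014, high to low. The A549 groups of EGFR and the H1299 groups of MST1R were neighbours that overlapped. For MET and FGFR1 the order was A549 BRM014, A549 DMSO, H1299 DMSO and H1299 BRM014, with overlap only between the H1299 groups of FGFR1. ERBB2 and DDR1 were higher in both A549 groups than in both H1299 groups, which overlapped with each other. For EPHA2 treatment came before line: both DMSO groups were above both BRM014 groups. For AXL the order was H1299 DMSO, H1299 BRM014, A549 DMSO and A549 BRM014 with no overlap, so AXL in treated H1299 cells was still above AXL in untreated A549 cells. The ratio of the highest to the lowest group mean was 7.99 for MST1R, 6.71 for AXL and 5.56 for IGF1R, and it was smallest for EPHA2 at 1.48.

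Summed over the 10 receptors, H1299 libraries held 1229 to 1251 CPM with BRM014 and 2114 to 2161 CPM with DMSO. Without AXL the H1299 sums were 673 to 686 CPM with BRM014 and 844 to 855 CPM with DMSO. In A549 the sums were 2185 to 2239 CPM with BRM014 and 2284 to 2297 CPM with DMSO. Without AXL the A549 sums lay the other way, with 2006 to 2044 CPM with BRM014 and 1874 to 1903 CPM with DMSO. Long and abundant mRNAs weigh most in such sums, since the counts were not divided by gene length.

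Across the 12 libraries, 9 of the 10 receptors had at least 1 other gene with a Pearson r above 0.99 in level, among 11129 genes compared. The number of such genes ran from 2 for EPHA2 to 1156 for IGF1R. For ERBB3, which lies below that mean and was measured on few reads, the highest r was 0.837 among 11130 genes. Within the 10 the closest pair was MST1R and IGF1R (r = 0.994). The 12 points fall into 2 lines and share treatments, so no likeness beyond line and treatment can be read from these values.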

How the data were processed

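Of 107 samples in the series, 12 RNA-seq libraries were used, and the other 95 samples were not analysed here. According to the labels' protocols, ribosome-depleted stranded libraries were made from 500 ng of total RNA, with spike-in RNA. For each line the authors deposited a table of raw gene counts, which are whole and not normalized. The submitters' processing notes name cutadapt 1.14, Bowtie 1.2.2, STAR 2.7.3a, featureCounts, DESeq2 and build hg38, with no roles. The annotation is not given in the sources used here, nor is the strand setting, so reads of overlapping or antisense genes at these loci are uncertain. Spike-in rows were not used here.

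In R 4.3.3, edgeR 4.0.16 (filterByExpr defaults, a count minimum of 10 and a total of 15; TMM; glmQLFit and glmQLFTest, two-sided; Benjamini-Hochberg adjustment over all genes) was fitted to each line. A joined fit of the 12 libraries over 22842 shared identifiers gave the interaction, the line difference in DMSO and the CPM levels, so folds and ratios of means can differ slightly. "Rose", "fell" and "changed" mean an adjusted p below 0.05. Standard errors are the log2 fold change divided by the root of F. Within groups, replicate counts differed beyond sampling noise (chi-square per degree of freedom 2.20 to 11.1; 4.99 for the columns that share a header). The steps were run on simulated counts with the same spread for every gene and independent libraries. That setting lacks the shared deviations seen in A549, so it does not give the error rate for these data.

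All 10 receptors are named in every comparison. They, and 5 gene lists, were chosen with earlier results of these data known. The lists, the markers and the genes most like each receptor could not be named, because the name tables at hand matched 0 identifiers. No sequence or position is given for the same reason. Alternatives were DESeq2 1.42.0 and its size factors, library totals, limma-voom (limma 3.58.1), no filter, a filter at 5 CPM, a test against 1.2-fold, the joined fit, a replicate block and leaving out libraries. Alternatives that leave out the columns that share a header, or the A549 pair that deviated together, were chosen after seeing the data. Leaving out the columns that share a header keeps only the third A549 BRM014 library in its group.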

Additional observations from a re-analysis of the deposited data

Results flagged for a closer look

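By the interaction term of the joined edgeR fit, 5 of the 10 receptors responded differently to BRM014 in H1299 and A549. Of the 16466 genes tested, 19.5% did so. The differences of log2 fold change, H1299 minus A549, were -0.76 for MET, -0.72 for FGFR1, -0.38 for EGFR, 0.87 for ERBB3 and 0.33 for DDR1. For MET every treated library was below the controls in H1299 and above them in A549. For DDR1 the difference passed although neither line passed when fitted alone. In the joined fit, which gave the interaction, DDR1 passed in A549. ERBB3 rests on 39 to 105 reads in a library. Of these 5 differences, only those of MET and FGFR1 also passed the test against 1.2-fold. The rise of MET within A549 did not pass that test.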

How the results depend on the processing

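Values of single receptors kept their direction and their side of the threshold in 142 of 148 alternatives in H1299, 149 of 159 in A549, 199 of 209 for the interaction and 127 of 139 for the line difference in DMSO. A test against 1.2-fold, a stricter question, left 776 genes and 5 receptors in H1299 (1 rose, 4 fell). In A549 it left 2442 genes and 3 receptors, of which 1 rose (FGFR1) and 2 fell (AXL, EPHA2). The A549 rises of MET and ERBB2 and the A549 fall of MST1R were lost. The fall of IGF1R was lost in both lines. For the interaction the test against 1.2-fold left 1094 genes and 2 receptors (MET and FGFR1), with 0 more positive. In H1299, 2 receptors rose with library totals, and 1 to 2 with each library left out, DDR1 joining without the first BRM014 library. For the interaction, 1 was more positive with the 5 CPM filter, which removed ERBB3. With library totals 2 were higher in H1299 in DMSO, EPHA2 turning to 0.12. Signs also turned for values not past the threshold: EGFR in A549 (0.014) and the IGF1R interaction (-0.0067) with library totals. With each library left out, ERBB3 in A549 ranged from -0.026 to 0.16 and MST1R in H1299 from -0.22 to 0.13. Apart from the scaling and the filter, whose construction is named, the cause was not tested. Same-numbered H1299 libraries did not deviate together (r of -0.019, -0.016 and 0.014), and neither did those of the lines in DMSO (-0.0064, 0.028 and -0.058), so the numbers were not taken to pair samples in these comparisons. In A549 the library numbered 3 in each treatment deviated together (r = 0.38), as did library a and the first DMSO library (0.54), but no block could be fitted there because libraries a and b carry no number. The replicate block gave 3272 genes and 6 receptors in H1299 (1 rose, 5 fell), and 13722 genes and 9 receptors in DMSO, without ERBB3. ERBB3, and MST1R in H1299, had the fewest reads and the widest intervals, and whether depth is the cause was not tested.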
